A study of Mus musculus with 8 samples.

Results

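The mitochondrial ribosomal protein genes are the genes whose symbol begins with Mrpl or Mrps followed by a digit. Of the 20484 genes in the deposited table, 77 met this rule, 48 with an Mrpl symbol and 29 with an Mrps symbol. Their RNA was measured in RN2, a line of acute myeloid leukaemia cells from C57BL/6J mice engineered to carry MLL-AF9 and an NRAS allele that the labels spell G112D, both of which all groups share. Cells were treated with RVX-208 (apabetalone), known to prefer the second bromodomain of BET proteins, with OTX-015 (birabresib), which binds both of their bromodomains, with BBC1115, a compound known by its code name, or with the solvent DMSO. BET proteins read acetylated histones and help to start transcription, and the title of the series places the work in a search for compounds that target them. There were 2 libraries a group, labelled biological replicates and all from 1 engineered line, and since doses and times are not stated, the compounds cannot be taken as matched for dose.

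The mitochondrial ribosome makes the membrane subunits of the respiratory chain that the mitochondrial genome encodes. Its RNA comes from mitochondrial DNA, but all of its proteins are encoded in the nucleus, made in the cytosol and imported, so that cells must balance a large set of nuclear genes. Proteins of the large subunit (Mrpl) surround the centre where peptide bonds are formed and the exit tunnel, and those of the small subunit (Mrps) hold the messenger RNA and the decoding centre. Some mitochondrial ribosomal proteins have bacterial relatives and others exist in mitochondria alone. Acute myeloid leukaemia cells are known to depend on mitochondrial translation, and MYC is a known driver of genes for mitochondrial biogenesis. The symbols do not match the structure in each case: the products of Mrps30 and Mrps18a sit in the large subunit of mammals, and that of Mrps36 is a part of the 2-oxoglutarate dehydrogenase complex. By structure there were therefore 50 genes of the large and 26 of the small subunit.

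Promoters are shown because most of these genes moved together, as the values further on show. RefSeq promoter windows (GRCm38.p6, 250 bases before to 50 bases after the start of the gene) were found for 68 of the 77 genes. For 12 of the 68 the window is built on a start more than 250 bases from the gene start in GENCODE, among them Mrpl36, where it lies 2496 bases inside the GENCODE gene. A set of 5 motifs was searched on both strands. The MYC and MAX E-box, CACGTG, was in 5 of the 68 windows (7.35%), against 12.3% of the 8149 tested genes with a window. The ETS and GABP core, CCGGAA, was in 39 windows (57.4%, against 35.1%), and the NRF1 motif (GCGCA, any base, GCGC) in 13 (19.1%, against 13.1%). The YY1 motif GCCATNTT was in 20 windows (29.4%, against 11.1%) and the TATA box TATAAA in 5 (7.35%, against 8.26%). Matches that overlapped another motif were kept, and a match is a description of letters, not a bound site. The 5 windows with an E-box are shown for 46 bases each, 5′ to 3′ on the strand of the gene, with the E-box in capitals.
Mrpl36 (chr13:73330946-73330991, plus strand): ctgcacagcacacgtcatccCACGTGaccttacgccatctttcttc
Mrpl37 (chr4:107067003-107067048, minus strand): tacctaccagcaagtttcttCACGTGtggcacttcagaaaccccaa
Mrpl20 (chr4:155802825-155802870, plus strand): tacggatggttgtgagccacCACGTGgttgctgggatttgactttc
Mrps18c (chr5:100798576-100798621, plus strand): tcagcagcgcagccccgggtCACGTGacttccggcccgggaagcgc
Mrpl2 (chr17:46646070-46646115, plus strand): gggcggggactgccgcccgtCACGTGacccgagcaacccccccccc

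Whole windows are shown for the 3 genes that fell most with OTX-015 and were not listed at 0 in any library. Capitals mark the E-box and the YY1 motif in Mrpl36, and, each as its reverse complement, the ETS core in Mrps18b and the NRF1 motif in Mrpl12.
Mrpl36 (chr13:73330759-73331058, plus strand): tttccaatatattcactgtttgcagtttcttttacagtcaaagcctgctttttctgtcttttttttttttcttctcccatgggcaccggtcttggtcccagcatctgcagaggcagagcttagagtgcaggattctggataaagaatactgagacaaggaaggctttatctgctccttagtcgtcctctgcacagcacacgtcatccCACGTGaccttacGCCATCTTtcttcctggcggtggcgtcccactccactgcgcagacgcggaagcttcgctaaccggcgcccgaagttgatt
Mrps18b (chr17:35916391-35916690, minus strand): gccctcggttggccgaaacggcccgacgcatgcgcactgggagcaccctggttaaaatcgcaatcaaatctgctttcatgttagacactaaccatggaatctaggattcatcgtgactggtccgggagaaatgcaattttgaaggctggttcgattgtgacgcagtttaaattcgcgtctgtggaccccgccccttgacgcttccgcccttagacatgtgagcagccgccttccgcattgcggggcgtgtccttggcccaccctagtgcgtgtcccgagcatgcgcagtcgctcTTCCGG
Mrpl12 (chr11:120484387-120484686, plus strand): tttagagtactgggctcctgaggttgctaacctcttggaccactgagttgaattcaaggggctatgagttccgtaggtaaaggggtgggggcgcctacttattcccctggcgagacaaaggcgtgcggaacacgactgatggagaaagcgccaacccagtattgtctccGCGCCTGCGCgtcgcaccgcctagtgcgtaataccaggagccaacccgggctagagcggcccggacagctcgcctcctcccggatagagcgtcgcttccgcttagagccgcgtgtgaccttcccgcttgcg

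In DMSO the 77 genes were well expressed. Levels are in RPKM, reads divided by transcript length and library size, so they can be compared between genes. The median over the genes was 43.0 RPKM, against 13.6 RPKM over the 9975 genes that reached 1 RPKM in at least 2 libraries and were tested. All 77 passed that filter. Mrpl33 was highest, at 331 ± 56.4 RPKM (mean ± SD, n = 2; all groups had this n), followed by Mrpl20 at 188 ± 24.7 RPKM, whose bacterial relative joins the large subunit early in its assembly, and Mrpl12 at 153 ± 17.5 RPKM. Next came Mrps21 at 147 ± 26.03 and Mrpl18 at 144 ± 14.7 RPKM, which differ from Mrpl12 by less than their SD. At the low end stood Mrps25 (12.1 ± 0.972 RPKM), Mrpl35 (8.85 ± 1.13 RPKM) and Mrpl17 (8.37 ± 0.947 RPKM), of which Mrpl35 and Mrpl17 differ by less than their SD. The highest level was 39.5 times the lowest, 6 genes lay above 100 RPKM and 10 below 20 RPKM. The medians of the subunits were close, 42.0 RPKM for Mrpl and 44.1 RPKM for Mrps genes.

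Libraries held an estimated 10900000 to 18100000 reads, and 9291 to 9648 genes reached 1 RPKM in each. The 8 markers of the myeloid leukaemia line that were checked (Ptprc, Itgam, Mpo, Kit, Elane, Ctsg, Hoxa9 and Meis1) were present in every library, from 6.01 RPKM for Kit to 1918 RPKM for Ctsg. Among markers of other cells, Cd3e, Cd3g and Col3a1 were at 0 in every library, and Cd79a, Hba-a1 and Col1a1 reached at most 0.608 RPKM. Epcam, an epithelial marker, was highest in BBC1115, at 1.01 and 0.999 RPKM, and at most 0.112 RPKM in DMSO. Myc stood at 64.2 and 62.3 RPKM in RVX-208, 3.75 and 3.74 RPKM in OTX-015, 2.77 and 2.26 RPKM in BBC1115, and 99.7 and 95.9 RPKM in DMSO, and its part in the results on ribosomal genes was not tested.

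Nearly the whole group was lower with OTX-015. Of the 77 genes, 67 fell and 2 rose (limma, adjusted p under 0.05), while 8 were not called. Over all tested genes, 40.0% were called lower and 24.2% higher. The median log2 fold change of the 77 genes was -0.57, against -0.13 over all tested genes, and 11 of the 77 (against 9.72% of all tested genes) fell by 1 or more on the log2 scale. Both OTX-015 libraries lay below both DMSO libraries for 69 of the 77 genes (89.6%), against 48.7% of all tested genes. RPKM are shares of a library from a whole culture, so fewer cells of a type and less RNA per cell cannot be told apart.

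BBC1115 gave 64 genes that fell, 4 that rose and 9 that were not called, where 49.3% of all tested genes were called lower and 26.4% higher. The median log2 fold change was -0.69, against -0.25 over all tested genes, and 21 of the 77 fell by 1 or more, against 19.7% of all tested genes. For 66 genes (85.7%) both BBC1115 libraries lay below both DMSO libraries, against 54.5% of all tested genes. OTX-015 and BBC1115 are compared with the same DMSO libraries, so their results are not independent.

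With RVX-208, 0 of the 77 genes were called in either direction by limma, where 8 of the tested genes (0.0802%) were called lower and 9 (0.0902%) higher. At an unadjusted p under 0.05, 19 of the 77 were lower and 0 higher, against 8.3% and 9.94% of all tested genes. The median log2 fold change was -0.17, against 0.02 over all tested genes, with 74 values below 0 and 3 above. The size of this median depended on the DMSO library that was kept. Without DMSO replicate 1 it shrank to -0.07, against 0.005 over all tested genes. Without DMSO replicate 2 it was -0.28, against 0.02. With the length trend removed it was -0.08, against -0.001. Both RVX-208 libraries lay below both DMSO libraries for 48 genes (62.3%), against 25.9% of all tested genes. The widest shift was that of Mrpl36, with a log2 fold change of -0.67 (95% interval -0.96 to -0.39, adjusted p = 0.0916). The genes nearest to 0 were Mrps27 (-0.03, interval -0.28 to 0.21), Mrpl55 (-0.04, interval -0.36 to 0.29) and Mrpl45 (-0.04, interval -0.25 to 0.17). Without DMSO replicate 2, 11 of the 77 were called lower with RVX-208, Mrpl36 and Mrpl12 among them, where 3.61% of all tested genes were called lower and 6.27% higher.

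**Figure D1:**
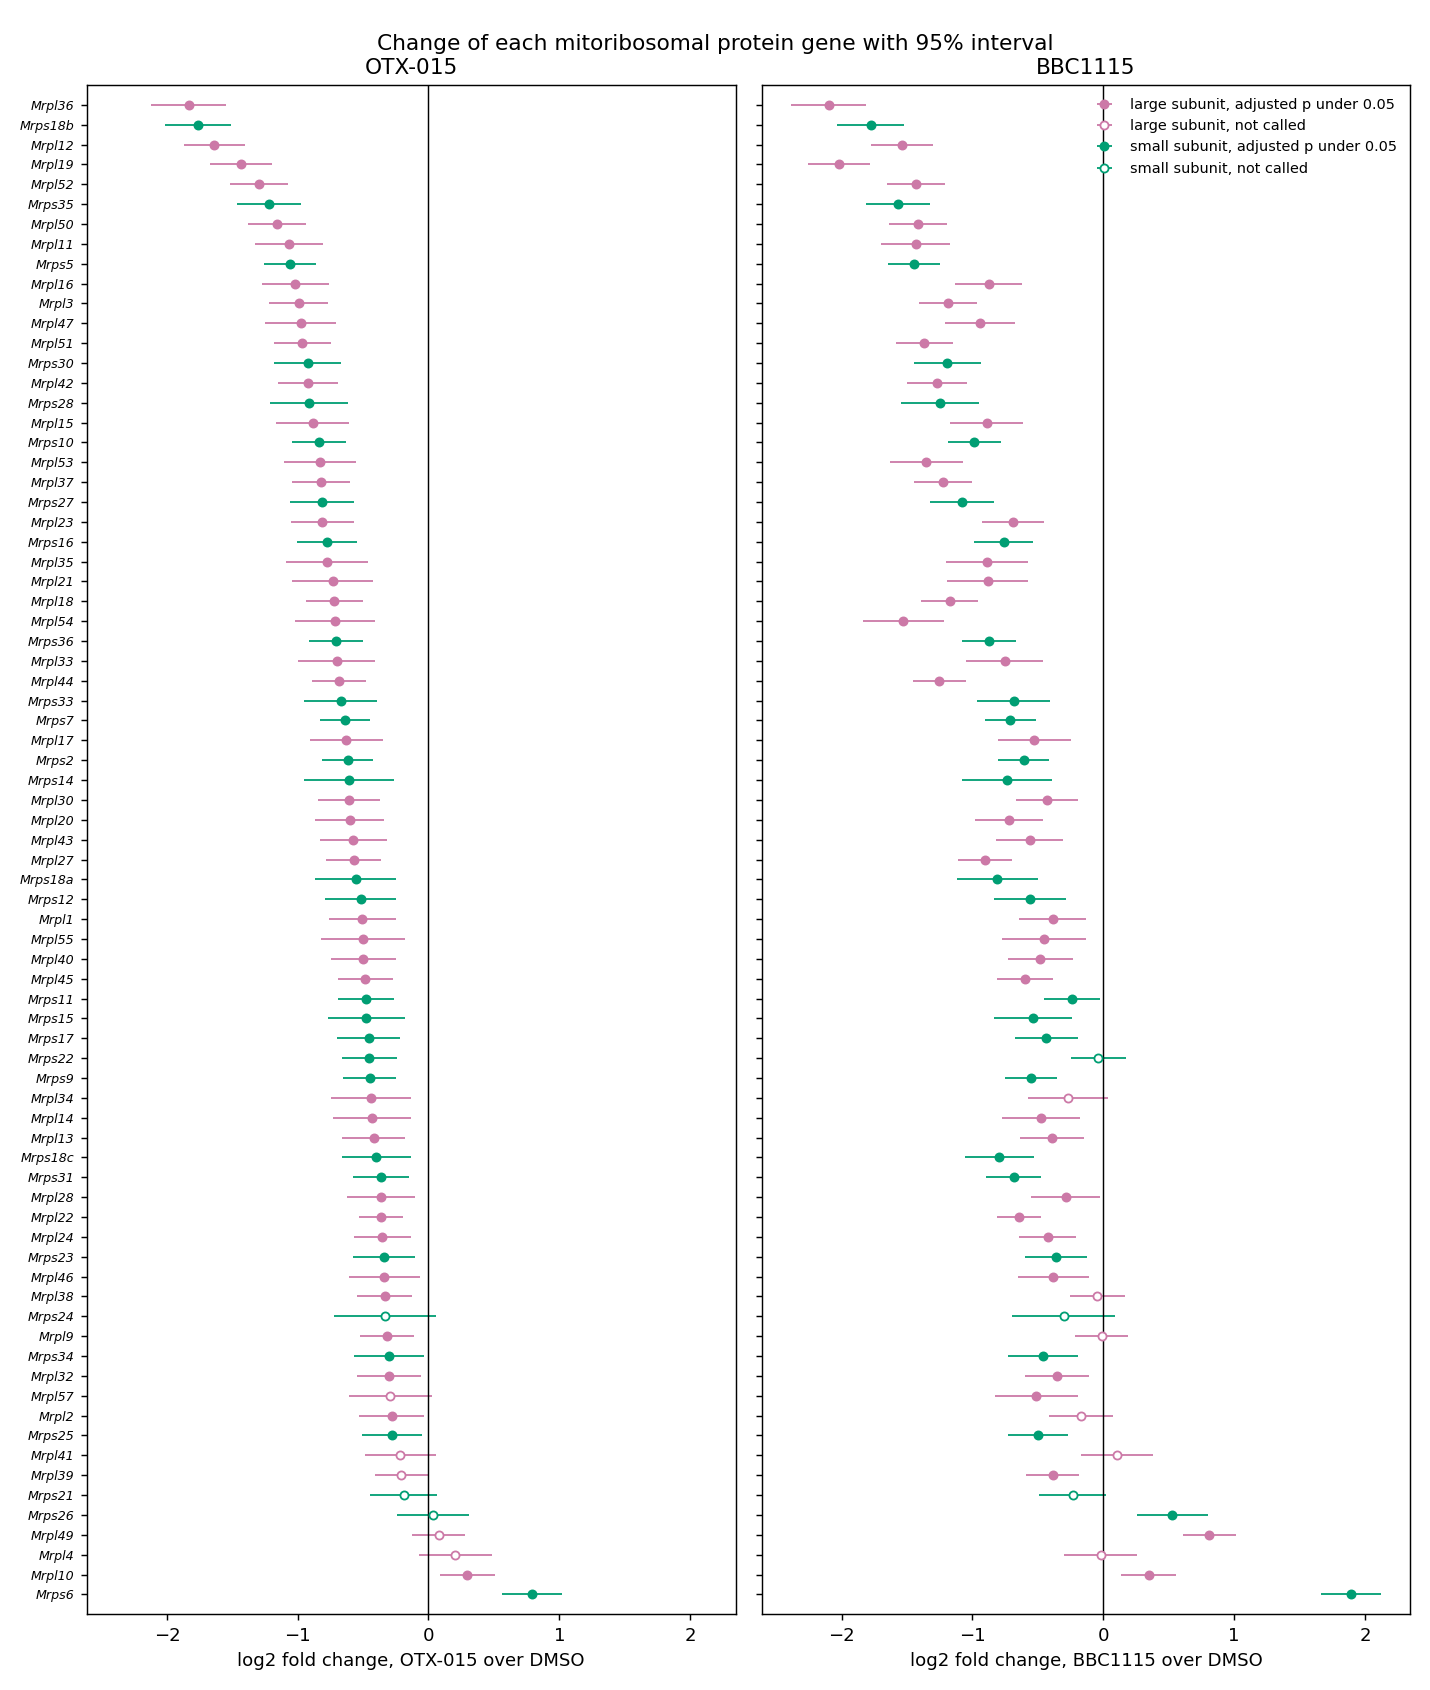
Log2 fold change over DMSO with its 95% interval for 76 genes, those with OTX-015 on the left and with BBC1115 on the right, in the order of the OTX-015 value; filled points passed an adjusted p of 0.05, and Mrpl48 is left out because it is listed at 0 in some libraries. Most points lie left of 0 in both panels, and Mrps6 is at the far right with 0.79 in OTX-015 and 1.89 in BBC1115.

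The DMSO libraries were not alike for these genes. Replicate 1 was above replicate 2 in 74 of the 77 genes, with a median log2 difference of 0.20, while the median over all tested genes was -0.02. The same difference was 0.25 over the 887 tested genes with transcripts under 1000 nucleotides. The 77 genes are short, with a median transcript of 1223 nucleotides against 2635 for all tested genes. In BBC1115 replicate 1 was above replicate 2 in 70 genes (median 0.19, all genes 0.02), in OTX-015 in 65 (0.12, all genes 0.12) and in RVX-208 in 30 (-0.03, all genes 0.00). Without DMSO replicate 1, the median log2 fold change of the 77 genes was -0.45 with OTX-015 and -0.55 with BBC1115. Over all tested genes it was then -0.13 and -0.26. Without DMSO replicate 2, the medians of the 77 genes were -0.69 and -0.77, against -0.12 and -0.24 over all tested genes. Without OTX-015 replicate 2, the median with OTX-015 was -0.51, against -0.07. Without BBC1115 replicate 2, the median with BBC1115 was -0.59, against -0.23.

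The values were tested as deposited, with no further scaling between libraries. Scaling each library to its upper quartile placed the median of all genes at 0.04 with OTX-015, where it was -0.13 as deposited, and at -0.02 with BBC1115, where it was -0.25. The 77 genes stayed below that median, with medians of -0.39 and -0.43. Under that scaling 50 fell and 4 rose with OTX-015, where 30.7% of all tested genes were called lower and 35.7% higher. With BBC1115 47 fell and 7 rose, where 39.7% were called lower and 37.5% higher. When the trend of the fold change with transcript length was removed, 45 fell and 4 rose with OTX-015 (35.6% and 36.1% of all tested genes), and 48 fell and 11 rose with BBC1115 (40.2% and 40.8%). Over these and the other settings that were run, the median of the 77 genes lay between -0.69 and -0.32 with OTX-015, between -0.77 and -0.36 with BBC1115 and between -0.28 and -0.07 with RVX-208.

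Genes of both subunits fell with OTX-015 and BBC1115. Over all tested genes, 40.0% were called lower and 24.2% higher with OTX-015 (median -0.13). With BBC1115 these shares were 49.3% and 26.4% (median -0.25). With OTX-015, 42 of the 48 Mrpl genes fell and 1 rose (median log2 fold change -0.60), and 25 of the 29 Mrps genes fell and 1 rose (median -0.52). With BBC1115, 40 Mrpl genes fell and 2 rose (median -0.67), and 24 Mrps genes fell and 2 rose (median -0.69). With RVX-208, 0 genes of either subunit were called, and the medians were -0.16 and -0.19. The median of the large subunit less that of the small was -0.09 with OTX-015, 0.02 with BBC1115 and 0.03 with RVX-208, and the same quantity between replicate libraries had an SD of 0.08. With the length trend removed it was -0.15 with OTX-015. With BBC1115 its sign turned under quantile normalization (-0.03), with the length trend removed (-0.01) and without DMSO replicate 1 (-0.03), DMSO replicate 2 (-0.09) or BBC1115 replicate 1 (-0.05). Sorting the genes by structure left 44 of 50 large and 22 of 26 small subunit genes lower with OTX-015 (medians -0.60 and -0.48), and 42 and 21 lower with BBC1115 (medians -0.71 and -0.58). So sorted, the median of the large less that of the small subunit was -0.13 with OTX-015 and -0.12 with BBC1115, and ranged from -0.18 to -0.07 with BBC1115 over the settings.

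**Figure D2:**
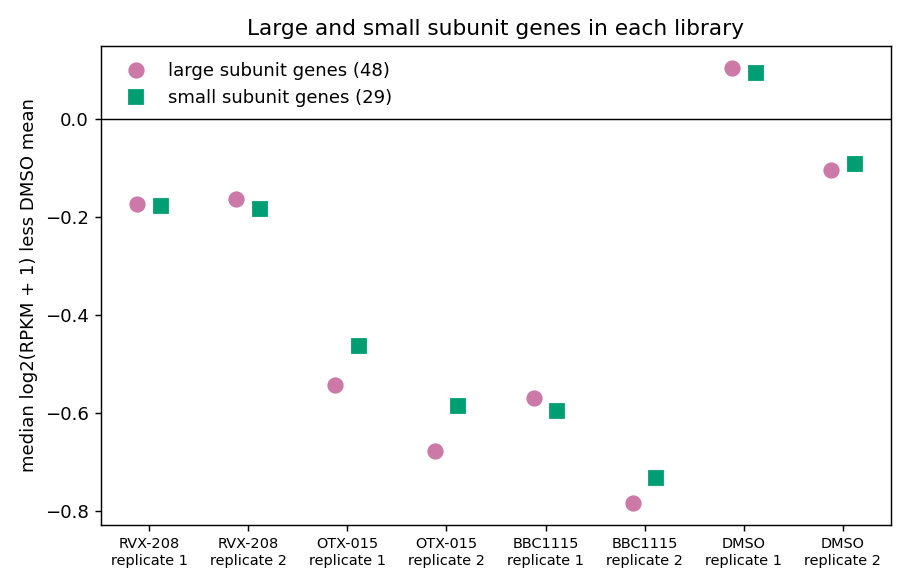
Median over the Mrpl genes (circles) and over the Mrps genes (squares) of log2(RPKM + 1) less the mean of the DMSO libraries, for each of the 8 libraries. The RVX-208 libraries lie at -0.16 to -0.18, the OTX-015 and BBC1115 libraries at -0.46 to -0.78, and the DMSO libraries at 0.10 and 0.09 in replicate 1 and -0.10 and -0.09 in replicate 2.

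In total RNA share, the genes other than Mrpl48 made up 0.828% and 0.829% of all RPKM in RVX-208, 0.666% and 0.665% in OTX-015, 0.599% and 0.568% in BBC1115, and 0.931% and 0.860% in DMSO. The libraries of OTX-015 and of BBC1115 lay below those of RVX-208 and DMSO in this share. Without Mrpl48, which was listed at 0 in 3 of the libraries, the ratio of the summed Mrpl to the summed Mrps RPKM was 1.80 and 1.83 in RVX-208, 1.64 and 1.71 in OTX-015, 1.61 and 1.55 in BBC1115, and 1.85 and 1.82 in DMSO. It was lower in both OTX-015 and both BBC1115 libraries than in any RVX-208 or DMSO library, while the medians by symbol differed by 0.09 or less as deposited. Sums weigh abundant genes most, and the Mrps sum includes Mrps6 and Mrps26, which rose with BBC1115. The ratio was not computed without these genes, and its sums follow the symbols, not the structure.

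Mrpl36 fell most among the genes that were not listed at 0. It encodes a small zinc-binding protein of the large subunit, and lies on chromosome 13 from 73328513 to 73332178 (plus strand, GRCm38). It stood at 35.1 and 36.5 RPKM in RVX-208, 17.1 and 13.9 RPKM in OTX-015, 13.8 and 11.6 RPKM in BBC1115, and 64.5 and 51.5 RPKM in DMSO. The groups did not overlap, though the nearest libraries of OTX-015 and BBC1115 stood at 13.9 and 13.8 RPKM. It was 3.74-fold lower with OTX-015 (log2 fold change -1.83, SE 0.13, adjusted p = 6.88e-07) and 4.56-fold lower with BBC1115 (-2.10, SE 0.13, adjusted p = 8.14e-08). Its GENCODE start, another than the one its RefSeq window is built on, lies head to head with Ndufs6, a subunit gene of respiratory complex I, whose log2 fold changes were -0.43 with OTX-015 and -0.39 with BBC1115, both called lower.

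Mrpl12 encodes the stalk protein that recruits translation factors, and is also known to bind the mitochondrial RNA polymerase. It lies on chromosome 11 from 120484613 to 120489065 and stood at 108 and 113 RPKM in RVX-208, 47.95 and 49.0 RPKM in OTX-015, 57.0 and 47.2 RPKM in BBC1115, and 166 and 141 RPKM in DMSO. No OTX-015 or BBC1115 library came near the DMSO libraries, and the RVX-208 libraries lay between. It was 3.16-fold lower with OTX-015 (log2 fold change -1.64, SE 0.11, adjusted p = 3.75e-07) and 2.94-fold lower with BBC1115 (-1.54, adjusted p = 1.92e-07). Its partners at the base of the stalk went separate ways. Mrpl11 stood at 10.3 and 11.8 RPKM in RVX-208, 6.40 and 6.05 RPKM in OTX-015, 5.18 and 4.06 RPKM in BBC1115, and 14.8 and 13.5 RPKM in DMSO, and fell with OTX-015 (-1.07, adjusted p = 1.91e-05) and with BBC1115 (-1.44, adjusted p = 8.25e-07). Mrpl10 stood at 36.7 and 36.1 RPKM in RVX-208, 42.3 in both libraries of OTX-015, 45.6 and 42.1 RPKM in BBC1115, and 37.4 and 31.4 RPKM in DMSO. It rose with OTX-015 (0.30, adjusted p = 0.0174) and with BBC1115 (0.35, adjusted p = 0.00604), and both calls were lost without DMSO replicate 2 (adjusted p = 0.16 and 0.066). The call with OTX-015 was also lost without either OTX-015 library (adjusted p = 0.0613 and 0.0645).

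The Mrps18 genes encode related proteins that descend from a single bacterial ribosomal protein. Mrps18b, of the small subunit, lies on chromosome 17 from 35910379 to 35916389 and stood at 59.8 and 63.4 RPKM in RVX-208, 25.3 and 19.2 RPKM in OTX-015, 22.3 and 21.3 RPKM in BBC1115, and 80.5 and 74.2 RPKM in DMSO. OTX-015 and BBC1115 libraries overlapped with each other and lay below all others. It was 3.48-fold lower with OTX-015 (log2 fold change -1.76, SE 0.12, adjusted p = 3.64e-07) and 3.55-fold lower with BBC1115 (-1.78, adjusted p = 1.09e-07). Mrps18a, of the large subunit, fell less, to 29.6 and 26.03 RPKM in OTX-015 and 27.0 and 19.8 RPKM in BBC1115, against 45.4 and 37.5 RPKM in DMSO (-0.56, adjusted p = 0.0051, and -0.81, adjusted p = 0.000286). Mrps18c, of the small subunit, had 90.1 and 75.8 RPKM in OTX-015, 68.6 and 57.2 RPKM in BBC1115, and 119 and 100 RPKM in DMSO (-0.40, adjusted p = 0.0128, and -0.79, adjusted p = 9.68e-05). The call of Mrps18a with OTX-015 was lost without OTX-015 replicate 2 (adjusted p = 0.0685), and that of Mrps18c under upper-quartile scaling, under quantile normalization, with the length trend removed (-0.05) and without DMSO replicate 1 or OTX-015 replicate 2. The 95% intervals of Mrps18b with OTX-015 (-2.02 to -1.51) do not overlap those of Mrps18a (-0.87 to -0.25) or Mrps18c (-0.66 to -0.14).

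Mrpl19, a protein near the boundary of the subunits in bacteria, stood at 12.3 and 12.2 RPKM in RVX-208, 4.87 and 4.66 RPKM in OTX-015, 3.10 and 2.57 RPKM in BBC1115, and 15.4 and 13.7 RPKM in DMSO. Each group was separate from the others. It was 3.06-fold lower with OTX-015 (-1.43, adjusted p = 1.01e-06) and 5.14-fold lower with BBC1115 (-2.02, adjusted p = 2.61e-08). Its exons share 1962 nucleotides with the oppositely transcribed Gcfc2. No source here says whether counting used strand, and without it reads of such partners cannot be told apart, which bears on the 19 of the 77 genes that share exon sequence with a coding gene of the table on the opposite strand. Gcfc2 rose with OTX-015 (0.38, adjusted p = 0.00965) and was not called with BBC1115 (0.11, adjusted p = 0.381), at 5.93 and 5.06 RPKM in OTX-015, 4.35 and 4.38 RPKM in BBC1115, and 3.79 and 4.18 RPKM in DMSO.

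Mrpl52 and Mrps35, whose proteins exist in mitochondrial but not in bacterial ribosomes, were among the strongest falls too. No count was made over all genes of this kind. Mrpl52 stood at 22.2 and 21.2 RPKM in OTX-015, 19.8 and 19.3 RPKM in BBC1115, and 60.2 and 49.3 RPKM in DMSO (-1.29, adjusted p = 1.3e-06, and -1.43, adjusted p = 2.08e-07). Mrps35 stood at 17.9 and 18.8 RPKM in OTX-015, 15.8 and 12.7 RPKM in BBC1115, and 46.2 and 42.0 RPKM in DMSO (-1.22, adjusted p = 3.85e-06, and -1.57, adjusted p = 2.11e-07). For both genes all libraries of OTX-015 and BBC1115 were under 23 RPKM and all DMSO libraries above 40 RPKM. Mrps30, which holds a place in the large subunit, fell to 18.3 and 14.01 RPKM in OTX-015 and 13.3 and 12.96 RPKM in BBC1115, against 33.0 and 29.6 RPKM in DMSO. Mrps27, a protein of the small subunit with pentatricopeptide repeats, fell to 14.8 and 12.2 RPKM in OTX-015 and 11.2 and 10.9 RPKM in BBC1115, against 22.6 and 26.5 RPKM in DMSO. The membrane anchor of the ribosome, Mrpl45, changed less, with 13.98 and 12.8 RPKM in OTX-015, 12.9 and 11.7 RPKM in BBC1115, and 20.2 and 18.04 RPKM in DMSO (-0.48, adjusted p = 0.00115, and -0.60, adjusted p = 0.000162).

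Mrps5, Mrps16, Mrps7, Mrps12 and Mrps15 encode small subunit proteins with bacterial relatives. Mrps5, relative of a bacterial protein that affects the accuracy of decoding, had 22.9 and 19.9 RPKM in OTX-015, 15.8 and 16.3 RPKM in BBC1115, and 47.2 and 43.8 RPKM in DMSO (-1.06, adjusted p = 2.51e-06, and -1.45, adjusted p = 8.23e-08). Mrps16 (-0.78 with OTX-015 and -0.76 with BBC1115), Mrps7, which starts the assembly of the head in bacteria (-0.64 and -0.71), Mrps12, of the decoding centre (-0.52 and -0.56), and Mrps15 (-0.48 and -0.53) were each called lower with either compound. Under upper-quartile scaling, under quantile normalization and with the length trend removed, Mrps15 lost both calls, down to -0.12 with OTX-015 and -0.14 with BBC1115, and without OTX-015 replicate 2 the first of them. Mrps12 lost its call with OTX-015 under quantile normalization (adjusted p = 0.0501) and with the length trend removed (adjusted p = 0.061). Mrps34, which in mice is needed for a stable small subunit, had 36.0 and 31.0 RPKM in OTX-015, 33.7 and 26.5 RPKM in BBC1115, and 44.6 and 38.6 RPKM in DMSO. Its call with OTX-015 (-0.30, adjusted p = 0.0471) was lost under upper-quartile scaling (adjusted p = 0.345), quantile normalization and TPM. It was also lost with a pseudocount of 0.1, with no filter, and without DMSO replicate 1 (-0.20), OTX-015 replicate 2 (-0.20) or either RVX-208 library. The sign turned when the length trend was removed (0.05). Its call with BBC1115 (-0.46) was lost under upper-quartile scaling, under quantile normalization, with the length trend removed (-0.065) and without BBC1115 replicate 2 (-0.29). Mrps34 shares 971 exon nucleotides with Mapk8ip3 on the opposite strand, which rose with both compounds (1.10 and 1.66). Mrps36, the dehydrogenase subunit, fell by 0.71 on the log2 scale with OTX-015 (adjusted p = 6.32e-05) and by 0.88 with BBC1115 (adjusted p = 6.04e-06).

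In the large subunit, Mrpl3, which is mutated in human heart and muscle disease of mitochondria, had 23.1 and 20.2 RPKM in OTX-015, 20.6 and 17.1 RPKM in BBC1115, and 44.7 and 43.3 RPKM in DMSO (-0.99, adjusted p = 9.68e-06, and -1.19, adjusted p = 1.04e-06). The most abundant gene, Mrpl33, had 209 and 194 RPKM in OTX-015, 218 and 173 RPKM in BBC1115, and 371 and 291 RPKM in DMSO (-0.70, adjusted p = 0.000822, and -0.76, adjusted p = 0.000323). The least abundant, Mrpl17, had 5.38 and 4.74 RPKM in OTX-015, 6.20 and 4.84 RPKM in BBC1115, and 9.04 and 7.70 RPKM in DMSO (-0.63, adjusted p = 0.00131, and -0.53, adjusted p = 0.00284). The call of Mrpl17 with BBC1115 was lost under quantile normalization (-0.21, adjusted p = 0.167).

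Mrpl48 was listed at 48.04 and 50.8 RPKM in RVX-208, at 0 and 25.7 RPKM in OTX-015, at 0 in both BBC1115 libraries, and at 40.1 and 43.6 RPKM in DMSO. The gene has 10 annotated transcripts and shares 409 exon nucleotides with Rab6a on the opposite strand. Whether a listed 0 is a level or a failed estimate was not tested, so no fold is given. The call with OTX-015 was lost under upper-quartile scaling (adjusted p = 0.0696) and with no filter (adjusted p = 0.106). It is counted among the genes called lower with OTX-015 and BBC1115, and without it 66 of 76 and 63 of 76 fell.

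**Figure D3:**
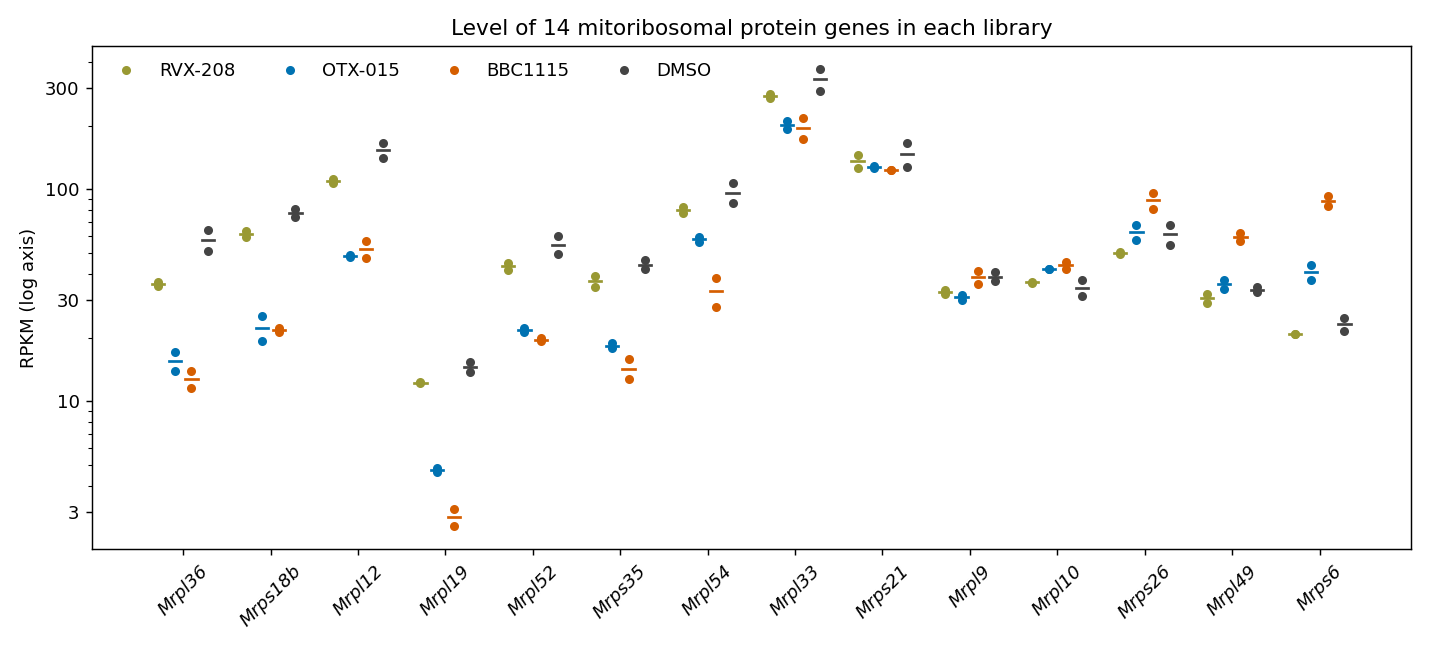
RPKM of 14 mitochondrial ribosomal protein genes in each library on a log axis, with points for single libraries and a short line at the group mean; the groups run RVX-208, OTX-015, BBC1115 and DMSO from left to right within a gene. From Mrpl36 to Mrpl54 the OTX-015 and BBC1115 libraries are below the DMSO libraries, while those of Mrps6 are above, at 44.1 and 37.3 and at 93.1 and 83.8 RPKM.

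A few genes went against the group. Mrps6, the small subunit protein that binds next to the S18 protein in bacteria, stood at 20.9 and 20.8 RPKM in RVX-208, 44.1 and 37.3 RPKM in OTX-015, 93.1 and 83.8 RPKM in BBC1115, and 24.6 and 21.6 RPKM in DMSO. The RVX-208 libraries were just below those of DMSO, OTX-015 was above both, and BBC1115 was highest. It rose 1.76-fold with OTX-015 (0.79, SE 0.10, adjusted p = 6.24e-05) and 3.83-fold with BBC1115 (1.89, SE 0.10, adjusted p = 3.27e-08), and both calls were kept under every setting that was run. Mrps6 lies on chromosome 16 from 92058270 to 92112227 and shares 159 exon nucleotides on the same strand with Slc5a3, a myo-inositol transporter gene that also rose, to 1.18 and 1.33 RPKM in OTX-015 and 3.05 and 3.74 RPKM in BBC1115, against 0.442 and 0.656 RPKM in DMSO. Reads in the shared stretch cannot be told apart.

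Mrpl49, of the large subunit, stood at 32.2 and 29.2 RPKM in RVX-208, 37.3 and 33.9 RPKM in OTX-015, 62.6 and 57.0 RPKM in BBC1115, and 32.6 and 34.6 RPKM in DMSO. It shares 91 exon nucleotides with Syvn1 on the opposite strand. It rose 1.78-fold with BBC1115 (0.81, adjusted p = 9.9e-06) and was not called with OTX-015 (0.08, interval -0.12 to 0.28). It was called higher with OTX-015 under upper-quartile scaling (0.26, adjusted p = 0.0111), quantile normalization (0.27), TPM (0.27) and with the length trend removed (0.35). Mrps26, of the small subunit, stood at 50.7 and 49.5 RPKM in RVX-208, 68.1 and 57.5 RPKM in OTX-015, 96.3 and 81.2 RPKM in BBC1115, and 68.2 and 54.6 RPKM in DMSO. It rose 1.45-fold with BBC1115 (0.53, adjusted p = 0.00241) and was not called with OTX-015 (0.04, interval -0.24 to 0.31). Under quantile normalization (0.27, adjusted p = 0.0309) and TPM (0.23, adjusted p = 0.0374) Mrps26 was called higher with OTX-015. Mrpl4 (0.20 with OTX-015 and -0.02 with BBC1115) and Mrps21 (-0.19 and -0.23) were not called with either as deposited. Mrpl4 was called higher with OTX-015 under upper-quartile scaling, quantile normalization, TPM and with the length trend removed (0.39 to 0.51, adjusted p = 0.0143 to 0.000737), and higher with BBC1115 under the last of these (0.37). Mrps21 was called lower with BBC1115 under the replicate block (adjusted p = 0.0324), and with both compounds without DMSO replicate 2 (-0.37 with OTX-015 and -0.41 with BBC1115). Mrpl9 (-0.01) and Mrps22 (-0.04) also lay close to 0 with BBC1115, and both were called lower with OTX-015 (-0.32, adjusted p = 0.0111, and -0.45, adjusted p = 0.00164). The OTX-015 call of Mrpl9 was lost under upper-quartile scaling (-0.13, adjusted p = 0.14), quantile normalization and TPM, with the length trend removed (-0.06, adjusted p = 0.287) and without DMSO replicate 1 or OTX-015 replicate 2. That of Mrps22 was lost with the length trend removed (-0.13, adjusted p = 0.121).

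BBC1115 was then set against OTX-015, a comparison of their own libraries in which compound and dose cannot be told apart. Of the 77 genes 6 were higher with BBC1115 and 15 lower, where 14.2% of all tested genes were called higher and 29.7% lower. The median log2 fold change was -0.07, against -0.09 over all tested genes. By subunit, 3 Mrpl genes were higher and 11 lower, and 3 Mrps genes were higher and 4 lower. Mrpl54 had 38.1 and 27.9 RPKM in BBC1115 against 59.8 and 56.5 RPKM in OTX-015 (-0.82, interval -1.12 to -0.51, adjusted p = 0.00093), and DMSO stood at 107 and 85.8 RPKM. Mrpl44, whose product has the fold of a double-stranded RNA nuclease and is mutated in human heart disease, had 18.9 and 20.2 RPKM in BBC1115 against 29.4 and 29.5 RPKM in OTX-015 (-0.57, interval -0.77 to -0.37, adjusted p = 0.000679). Libraries of the groups did not overlap for either gene. Mrpl44 shares 126 exon nucleotides with Wdfy1 on the opposite strand, which was also lower than in DMSO with OTX-015 (-1.14) and BBC1115 (-1.95).

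Further genes lower with BBC1115 than with OTX-015 were Mrpl19 (-0.59, adjusted p = 0.00131), Mrpl53 (-0.52, adjusted p = 0.00673), Mrpl18 (-0.46, adjusted p = 0.00357) and Mrpl37 (-0.41, adjusted p = 0.00729). Those higher were Mrps6 (1.10, interval 0.88 to 1.33, adjusted p = 1.97e-05), Mrpl49 (0.73, adjusted p = 0.000128), Mrps26 (0.49, adjusted p = 0.00848), Mrps22 (0.41, adjusted p = 0.00524), Mrpl9 (0.30, adjusted p = 0.0211) and Mrpl38 (0.29, adjusted p = 0.0282). The remaining 56 genes were not called. Among them the interval for Mrps18b was -0.27 to 0.24, for Mrpl12 -0.14 to 0.33 and for Mrpl36 -0.55 to 0.02. With values scaled to TPM, Mrpl9 (0.16) and Mrpl38 (0.15) lost their calls. Without OTX-015 replicate 1, Mrpl37 (-0.335), Mrpl53 (-0.37) and Mrpl38 (0.25) lost theirs. Mrps26 and Mrpl9 lost theirs without OTX-015 replicate 2 (0.37 and 0.26) or BBC1115 replicate 1 (0.37 and 0.21). Mrpl38 also lost its call without OTX-015 replicate 2, BBC1115 replicate 1 or either RVX-208 library. The counts of higher and lower genes leaned on single libraries too. Without OTX-015 replicate 1, 7 genes were lower, and without OTX-015 replicate 2 or without BBC1115 replicate 1, 3 were higher. With values scaled to TPM, 35 were lower, where 43.2% of all tested genes were called lower and 8.92% higher.

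**Figure D4:**
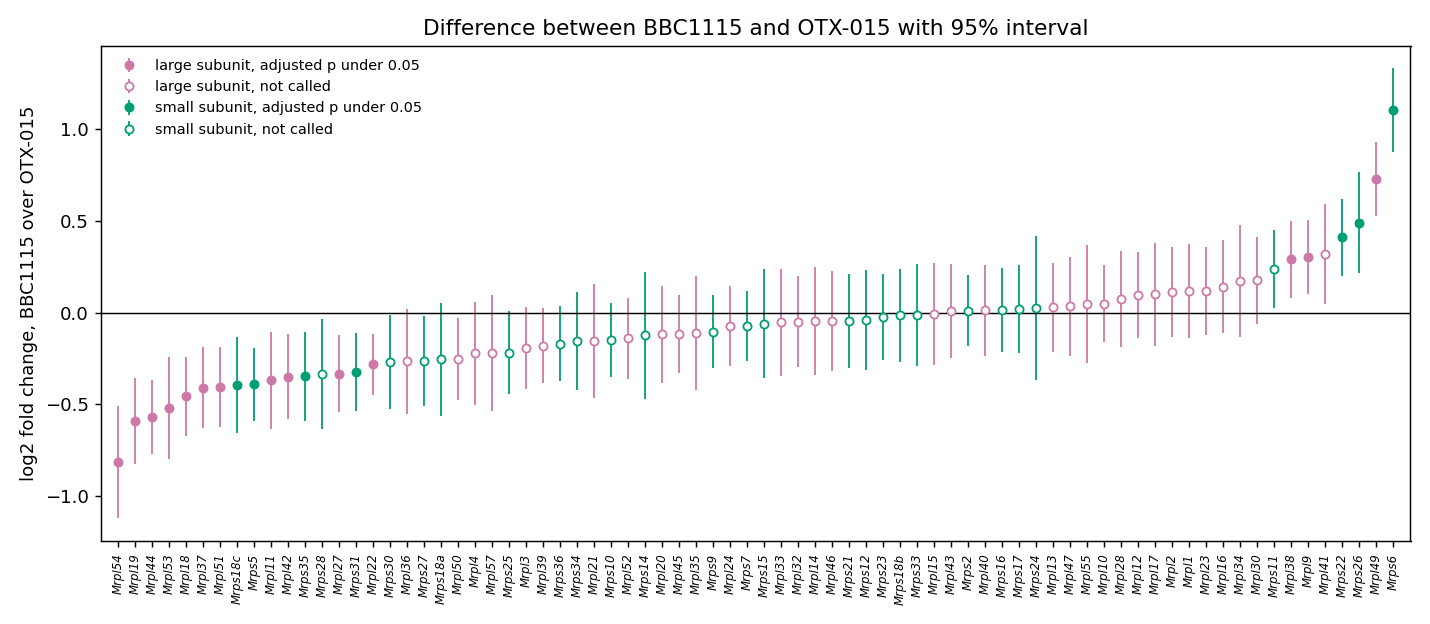
Log2 fold change of BBC1115 over OTX-015 with its 95% interval for 76 genes in rising order, coloured by subunit, with filled points for an adjusted p under 0.05 and Mrpl48 left out. Most intervals cross 0, Mrpl54 is lowest at -0.82 and Mrps6 highest at 1.10.

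Against RVX-208, OTX-015 gave 52 of the 77 genes lower and 1 higher, where 38.1% of all tested genes were called lower and 17.6% higher. The gene that was higher was Mrps6 (0.93, adjusted p = 2.71e-05). The median log2 fold change was -0.42, against -0.14 over all tested genes, and without OTX-015 replicate 2 it was -0.35, against -0.08. BBC1115 against RVX-208 gave 57 lower and 5 higher, where 49.6% were called lower and 23.9% higher, with a median of -0.49 against -0.26. The 5 were Mrps6, Mrpl49, Mrps26, Mrpl10 and Mrpl9, of which 3 were left without either RVX-208 library or without BBC1115 replicate 1. Mrpl12 was lower than in RVX-208 with OTX-015 (-1.17, adjusted p = 6.66e-06) and with BBC1115 (-1.07, adjusted p = 4.11e-06), as was Mrps18b (-1.44, adjusted p = 2.43e-06, and -1.46, adjusted p = 6.41e-07).

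Genes that work with these proteins were counted in the same fits, where 40.0% of all tested genes were called lower with OTX-015 and 49.3% with BBC1115. A further 6 proteins of the mitochondrial ribosome carry other names, and 5 of the 6 fell and 1 rose with OTX-015, and likewise with BBC1115. The gene that rose was Dap3, a GTP-binding protein of the small subunit, named after its values were seen. Chchd1, of the small subunit, had 34.3 and 31.2 RPKM in OTX-015, 30.8 and 20.5 RPKM in BBC1115, and 89.4 and 72.8 RPKM in DMSO (-1.28, adjusted p = 4.07e-05, and -1.64, adjusted p = 2.74e-06). Gadd45gip1, of the large subunit, had 14.1 and 11.2 RPKM in OTX-015, 12.01 and 9.68 RPKM in BBC1115, and 29.3 and 26.6 RPKM in DMSO (-1.09 and -1.30). Both libraries of either compound lay below both DMSO libraries for these 2 genes.

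Among 28 tested genes for the assembly of the ribosome and the modification of its RNA, 15 (53.6%) fell and 2 rose with OTX-015, and 15 fell and 4 rose with BBC1115, with medians of -0.28 and -0.43. Here and in the lists that follow, the shares of all tested genes to read beside the counts are 40.0% lower and 24.2% higher with OTX-015, and 49.3% lower and 26.4% higher with BBC1115. Fastkd2, which binds the RNA of the large subunit, had 3.64 and 3.33 RPKM in OTX-015, 1.64 and 1.47 RPKM in BBC1115, and 13.1 and 13.6 RPKM in DMSO (-1.68, adjusted p = 2.05e-07, and -2.49, adjusted p = 3.76e-09). Mtg1, a GTPase of large subunit assembly, fell with both compounds (-1.53 and -1.89). Of 19 translation factors, 12 (63.2%) fell and 1 rose with either compound, with medians of -0.50 and -0.73. Tufm, the elongation factor that brings charged tRNA, had 32.8 and 29.1 RPKM in OTX-015, 24.9 and 22.6 RPKM in BBC1115, and 64.6 and 59.5 RPKM in DMSO (-0.98, adjusted p = 4.71e-06, and -1.35, adjusted p = 1.57e-07). Mtrf1, related to release factors, fell as well (-1.86 and -2.59). A list of 17 genes held those for the transcription and copying of mitochondrial DNA. It also held Nrf1, Gabpa, Gabpb1, Esrra, Ppargc1b and Pprc1, which are regulators of nuclear genes. With OTX-015, 10 of the 17 (58.8%) fell and 2 rose. With BBC1115, 12 (70.6%) fell and 3 rose, and the medians were -0.54 and -0.77. Polg2 was among those that rose, but was listed at 0 in both DMSO and both RVX-208 libraries. It had 8.52 and 4.29 RPKM in OTX-015, and 18.7 and 15.5 RPKM in BBC1115. Whether its listed 0 is a level or a failed estimate was not tested. In these lists 0 genes were called with RVX-208, and 0 to 6 were lower at an unadjusted p under 0.05.

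Subunits of the respiratory chain and of the cytosolic ribosome were counted beside them. Of 79 tested subunit genes of oxidative phosphorylation, 35 (44.3%) fell and 2 rose with OTX-015 (median -0.27), and 30 (38.0%) fell and 6 rose with BBC1115 (median -0.18), which lies near the 40.0% of all tested genes called lower with OTX-015 and under the 49.3% with BBC1115. The sign of both medians turned when the length trend was removed (0.02 and 0.12). Over the settings, 18 to 54 were lower and 0 to 23 higher with OTX-015, and 14 to 43 lower and 3 to 33 higher with BBC1115. Of 79 cytosolic ribosomal protein genes, 19 fell and 0 rose with OTX-015 (median -0.25), and 2 fell and 8 rose with BBC1115 (median 0.12). These counts moved with the scaling, from 3 to 51 lower and 0 to 40 higher with OTX-015 and from 1 to 17 lower and 2 to 74 higher with BBC1115. The sign of the median with OTX-015 turned with the length trend removed (0.09), and the median with BBC1115 ranged from -0.025 to 0.445 over the settings. Between BBC1115 and OTX-015, 47 of the 79 cytosolic ribosomal genes were higher and 0 lower, beside the 6 higher and 15 lower of the 77 mitochondrial ones and 14.2% higher and 29.7% lower of all tested genes. The median of the cytosolic genes in that comparison was 0.36, and 0.03 under quantile normalization. The counts of these lists are descriptions, and the difference between lists was not tested.

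**Figure D5:**
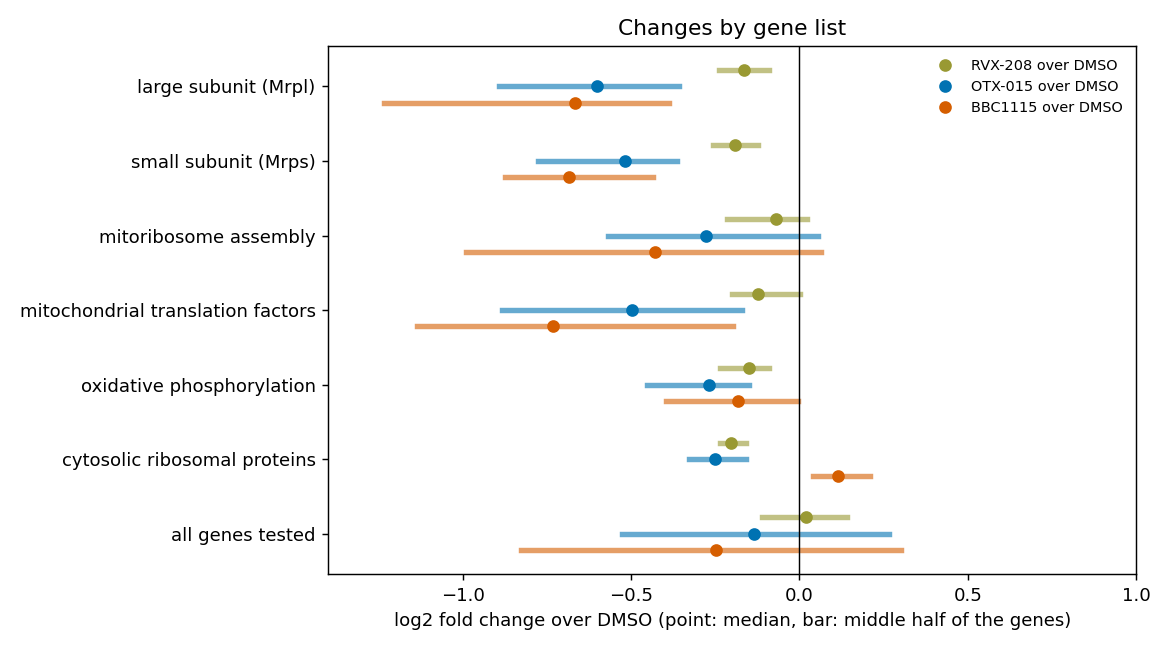
Median (point) and middle 50% (bar) of the log2 fold changes over DMSO for genes of each list, by compound, with all 9975 tested genes in the lowest row. The large and small subunit genes have medians of -0.60 and -0.52 with OTX-015 and -0.67 and -0.69 with BBC1115, further left than those of oxidative phosphorylation and of cytosolic ribosomal proteins. Mitochondrial translation factors have medians of -0.50 with OTX-015 and -0.73 with BBC1115, which with BBC1115 is further left than either subunit.

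Some of the genes also share a feature of position. A protein-coding gene starts head to head within 1000 bases on the other strand in 23 of the 77 genes (29.9%). Among 21951 annotated coding genes, expressed or not, the share was 7.94%. It was not counted among the tested genes alone, so these shares are not matched for expression. Of 21 such partners that were tested, 10 were called lower with OTX-015, where 40.0% of all tested genes were, and 15 with BBC1115, where 49.3% were. The medians of the partners were -0.22 and -0.45, those of the members with a partner -0.60 and -0.79, and those of members without one -0.56 and -0.62. Mrpl12 has no such partner, while Mrps18b starts head to head with Ppp1r10, which was not called with OTX-015 (0.20, adjusted p = 0.177) or BBC1115 (0.28, adjusted p = 0.0582).

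The motifs shown above can be set beside the changes, where 40.0% of all tested genes were called lower with OTX-015 and 49.3% with BBC1115. All 5 genes with the E-box fell with OTX-015 (median -0.60), as did 54 of the 63 without it (median -0.57), and 4 of 5 fell with BBC1115 (median -0.79) beside 53 of 63 (median -0.61). The 20 genes with the YY1 motif had medians of -0.73 with OTX-015 and -0.90 with BBC1115, against -0.50 and -0.56 in the 48 without it. The 13 genes with the NRF1 motif fell less, with medians of -0.43 and -0.48, against -0.61 and -0.72 in the 55 without it. The 39 with the ETS core had -0.57 and -0.69, against -0.60 and -0.61 in the 29 without it. The 5 with the TATA box had -0.46 and -0.44, against -0.57 and -0.69 in the 63 without it. These splits are descriptions over genes of the same libraries and were not tested.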

How the data were processed

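RNA from 8 libraries of RN2 cells, made with a directional mRNA kit per the labels' protocols, was measured as RPKM. The authors deposited 1 table of RPKM values, and STAR, Cufflinks and the mouse build mm10 are named, with no version of the programs, per the submitters' processing notes. All 8 columns matched a library, and whether counting used strand is not stated. Genes with at least 1 RPKM in at least 2 libraries were kept (9975 of 20484). Values were tested as log2(RPKM + 1) with limma 3.58.1 (R 4.3.3, variance trend, two-sided) in 1 fit of the 4 groups with 4 residual degrees of freedom, and each contrast had Benjamini-Hochberg adjusted p-values over its kept genes (threshold 0.05). A log2 fold change is the model's difference on that scale, which understates the change of low genes, and a fold is the ratio of mean RPKM. With 2 libraries a group, p-values measure the spread between libraries described as biological replicates. Read totals were estimated from the smallest steps of RPKM, since the table holds no counts.

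Gene positions, lengths and exon overlaps came from GENCODE M21 (20373 of 20484 symbols and all 77 members matched), and promoter windows from RefSeq (GRCm38.p6). Tables and figures were made with Python 3.11.15, pandas 2.3.3, numpy 2.4.6 and matplotlib 3.10.9, and the fit was tested on simulated data. Genes named in the text are, for each contrast, up to 6 called members with the largest change in each direction, the 3 highest and lowest in DMSO, the 3 nearest to 0, called members against the majority, a panel with known roles and the leading genes of each list. Mrpl38, the head-to-head and overlapping genes, Myc and the cell markers were named beside them. The members and lists were chosen with earlier results of these data known. Alternatives were a pseudocount of 0.1, no filter (14603 genes), upper-quartile scaling, quantile normalization, TPM, removal of the trend with transcript length (lowess, span 0.3, 9951 genes), a replicate block, only the 2 groups compared, and each library left out in turn.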

Additional observations from a re-analysis of the deposited data

How the results depend on the processing

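The count of genes called lower with OTX-015 (45 to 71 of 77) and with BBC1115 (47 to 66) stayed within 1.5 times its main value under each of the 16 alternatives. Of 1792 values for named genes, 1651 kept their direction and side of the threshold, 99 lost their call, 13 gained one and 29 changed sign. For each change below the cause was not tested. Counts over all tested genes moved as well. With the length trend removed, 3593 were higher with OTX-015 and 4057 with BBC1115, against 2418 and 2629 as deposited. Then 3122 were higher with BBC1115 than with OTX-015, against 1413. Against RVX-208, 3313 were higher with OTX-015 and 3952 with BBC1115, against 1752 and 2382. With RVX-208, 213 were lower than in DMSO, against 8. A larger count below is not by itself a result about the 77 genes.

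Genes called higher with OTX-015 numbered 2, but 4 under upper-quartile scaling and with the length trend removed, 5 under quantile normalization and with TPM, and 1 to 2 with a library left out (1 without DMSO replicate 2 or either OTX-015 library). Genes higher with BBC1115 numbered 4, but 7 under upper-quartile scaling, 11 with the length trend removed and 3 to 4 with a library left out. Genes lower with RVX-208 numbered 0, but 4 with the length trend removed and 0 to 11 with a library left out (11 without DMSO replicate 2). Of genes higher with BBC1115 than with OTX-015, 6 became 11 with the length trend removed and 3 to 8 with a library left out. Of those lower, 15 became 35 with TPM and 7 to 19 with a library left out. Against RVX-208, genes higher with OTX-015 numbered 1, but 5 under upper-quartile scaling and quantile normalization, 4 with TPM, 6 with the length trend removed, 3 in a fit of the 2 groups alone and 1 to 3 with a library left out. The 52 lower ones ranged from 30 to 54 with a library left out. Genes higher with BBC1115 than with RVX-208 numbered 5, but 9 under upper-quartile scaling and quantile normalization, 11 with the length trend removed and 3 to 6 with a library left out. The 57 lower ones became 37 under upper-quartile scaling, where 4037 of the 9975 tested genes were lower, against 4950 as deposited. The median of the large less the small subunit with BBC1115 ranged from -0.093 (without DMSO replicate 2) to 0.026 with a library left out.

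The labels state no pairing of libraries by replicate number. Deviations of same-numbered libraries correlated at 0.52 between DMSO and BBC1115 but at -0.08 to 0.06 in the other pairs of groups. Whether the DMSO and BBC1115 libraries were paired cannot be told from these values. With the replicate block, 68 genes were lower and 2 higher with OTX-015, 66 lower and 4 higher with BBC1115, 1 lower with RVX-208, and 4 higher with OTX-015 than with RVX-208.

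Signs changed for these log2 fold changes, of which that of Mrps34 was called as reported and the others were not. With BBC1115, upper-quartile scaling gave 0.203 for Mrpl38, 0.229 for Mrpl4, 0.239 for Mrpl9, 0.024 for Mrps21 and 0.211 for Mrps22. Quantile normalization gave 0.214 for Mrpl38, 0.238 for Mrpl4, 0.212 for Mrpl9 and 0.191 for Mrps22 with BBC1115, and 0.087 for Mrps21 with OTX-015. TPM gave 0.016 for Mrpl4 and 0.023 for Mrpl9 with BBC1115 and 0.002 for Mrps21 with OTX-015. With the length trend removed, the values were 0.335 for Mrpl38, 0.373 for Mrpl4, 0.345 for Mrpl9 and 0.36 for Mrps22 with BBC1115, and 0.141 for Mrps21 and 0.05 for Mrps34 with OTX-015. Among these reversed values, those of Mrpl9 passed the threshold under upper-quartile scaling (adjusted p = 0.0163), quantile normalization (0.0179) and with the length trend removed (0.00025), as did Mrps22 under the first (0.0463) and last (0.00132), and Mrpl38 (0.00194) and Mrpl4 (0.00335) under the last. With a library left out, the ranges were -0.129 to 0.04 for Mrpl38, -0.152 to 0.113 for Mrpl4, -0.106 to 0.08 for Mrpl9 and -0.11 to 0.031 for Mrps22 with BBC1115, and -0.122 to 0.193 for Mrps26 with OTX-015.

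The table holds no counts, so no counting interval is given, and 2 libraries a group limit the precision of each value.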
